A study of Rattus norvegicus with 34 samples.

Results

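The genes described here encode the tubulins, neuronal intermediate filaments and microtubule-associated proteins that build the neuronal cytoskeleton: Tubb3, Tubb2b, Tuba1a, Nefl, Nefm, Nefh, Prph, Ina, Map2 and Mapt. They are a named list of genes, drawn up with earlier results of these data known, and 9 of the 10 were measured, each by 1 probe, among 21895 tested features (21793 named genes). Mapt was not analysed here. Gene expression had been measured on 34 Illumina rat bead arrays of primary cortical neurons of Wistar rats (Hooded Wistar in the labels' protocol), cultured for 21 days before use. The protocol gives embryonic day 17 for the donor tissue and the age label gives gestation day 15 to 16. The groups were severe neurotrauma at 0 h (1 array) and at 8, 15, 24 and 48 h (3 arrays each), mild neurotrauma at 0, 8, 15, 24 and 48 h (3 arrays each), and uninjured control (6 arrays). Axon bundles were cut with a knife or stretched with puffs of oxygen, and the labels do not say which injury was the mild one. Tissue of several embryos and the RNA of several wells were pooled per array. Cultures came from 3 different pregnant rats, but no label ties an array to a culture, so the spread behind each p-value may be partly technical.

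Microtubules are hollow polymers of alpha- and beta-tubulin that run through axons and dendrites and carry transport between the cell body and the terminals. Neurofilaments are assembled from the light, medium and heavy subunits (Nefl, Nefm and Nefh) together with alpha-internexin (Ina) in central neurons or peripherin (Prph), which is best known from peripheral neurons, and they set axon calibre. Microtubule-associated proteins such as Map2, which is concentrated in dendrites, and tau, the product of Mapt, bind and stabilise the polymer.

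The values were linear ratios to the mean of 3 arrays, put here on the log2 scale, so they give differences between arrays and no level of one gene against another. From these ratios the labelled cell type could not be checked by the level of neuronal markers, and the deposited signals were not used for that. All severe arrays and the arrays labelled mild 48 h shared one divisor (the mean of the 3 arrays labelled mild 48 h), and the control and mild 0 to 24 h arrays shared the other (the mean of control 1 to 3). Comparisons were made within each of these sets of 16 and 18 arrays. The deposited signal table holds the arrays in another order, so the labels of 18 arrays are uncertain. Read in that order, the label mild 48 h would stand for control 4 to 6, the label control 4 to 6 for mild 0 h, and the labels mild 0, 8, 15 and 24 h for the next later time each. Control 1 to 3 and all severe arrays have the same name in both orders. Groups are named here as labelled. Array barcodes in the labels place the arrays on 4 chips: chip 3 held 9 of the 12 severe 8 to 48 h arrays, the severe 0 h array and none of the arrays labelled mild 48 h. Chips 1, 2 and 4 held 1 severe and 1 mild 48 h array each.

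Severe injury arrays were first compared with the arrays labelled mild 48 h, as the average over 8, 15, 24 and 48 h. As labelled, severe 8, 15 and 24 h differ from these arrays in both injury and time. No severe array shared a divisor with an array labelled control, so no severe group was compared with controls. Tubb3, the neuron-specific beta-tubulin, was 3.70-fold lower, Prph was 3.13-fold lower, and Tubb2b, a beta-tubulin of developing neurons, was 1.82-fold lower in the severe arrays. The neurofilament subunits Nefl and Nefm, alpha-internexin, Tuba1a, Nefh and Map2 did not pass the threshold (limma, adjusted p under 0.05 over all features). The 3 members that passed were all lower, among 9 measured, where 8.73% of all features were called lower and 14.5% were called in either direction. The median log2 difference was -0.87 over the 9 members and 0.01 over all features. The share of all features whose groups did not overlap was not computed, so statements of overlap here and below only describe single genes.

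**Figure D1:**
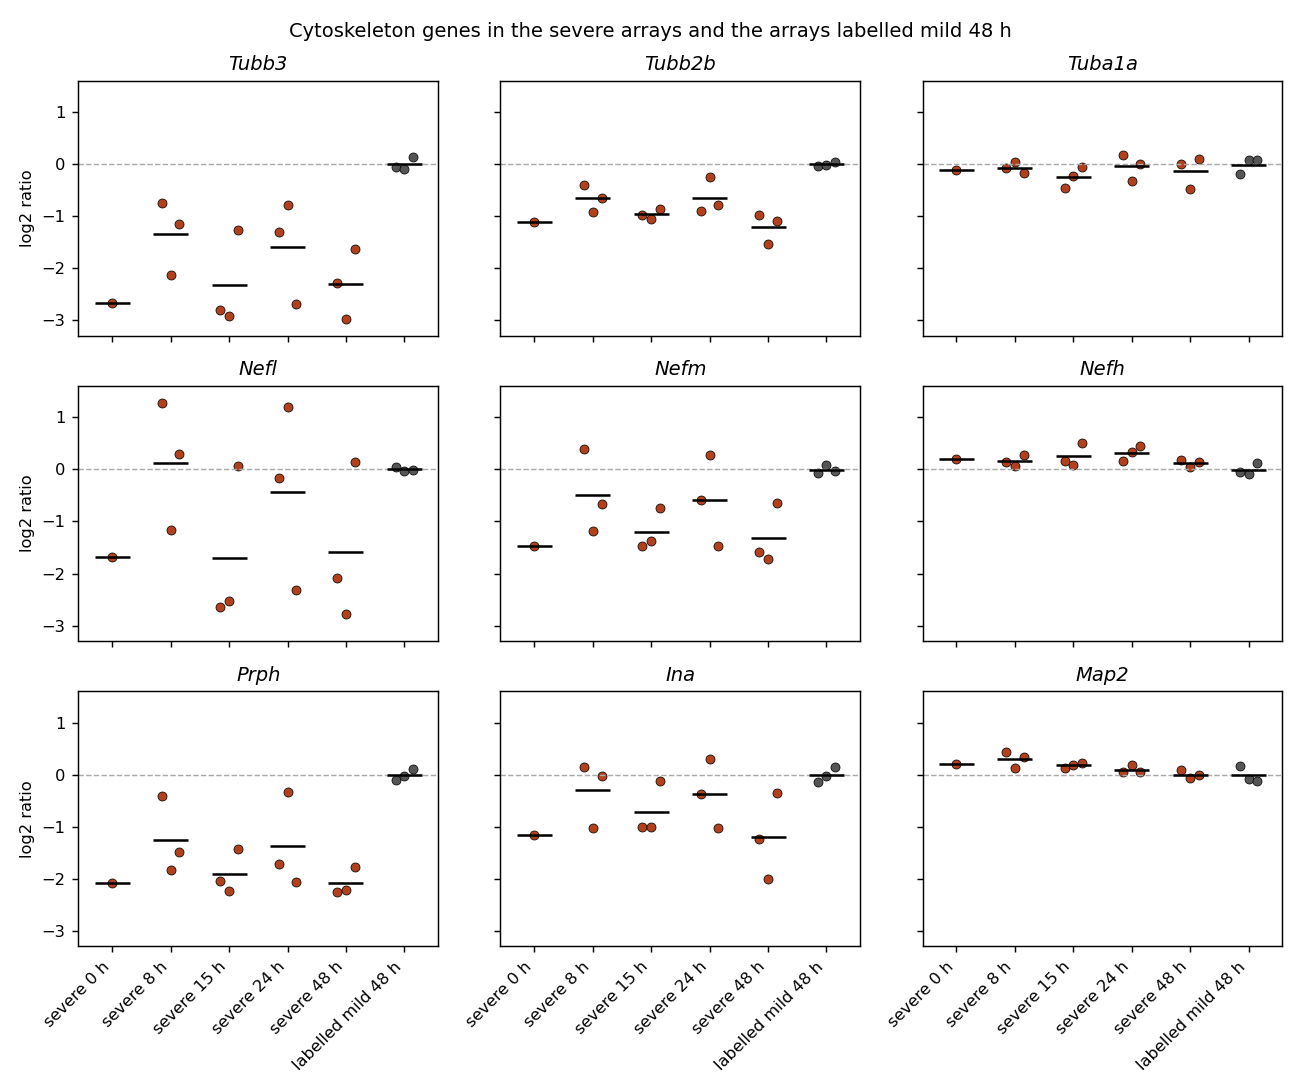
Log2 ratio of each member gene (one panel per gene, y axis) in the 13 severe arrays (orange, by hours after injury) and the 3 arrays labelled mild 48 h (grey). Each point is 1 array and each bar a group mean. Tubb3, Tubb2b and Prph lie below the grey points in all severe arrays, Nefl lies on both sides of them, and Tuba1a, Nefh and Map2 stay between -0.48 and 0.52.

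Among the tubulins, the log2 ratio of Tubb3 was -0.75, -2.13 and -1.15 at severe 8 h, -2.80, -2.92 and -1.26 at 15 h, -1.30, -0.78 and -2.69 at 24 h, and -2.28, -2.98 and -1.62 at 48 h. It was -0.06, -0.09 and 0.14 in the arrays labelled mild 48 h. All 12 severe arrays lay below all 3 arrays labelled mild 48 h, although the severe arrays themselves spanned over 2 log2 units. The average difference was -1.89 ± 0.44 (SE, limma, adjusted p = 0.0109), and 0.74% of all features had a lower one. Tubb2b moved in the same direction within a narrower range. Its log2 ratios were between -1.53 and -0.25 in the 12 severe arrays, with a median of -0.91, and -0.04, -0.01 and 0.05 in the arrays labelled mild 48 h. The groups did not overlap, and the average difference was -0.87 ± 0.14 (SE, limma, adjusted p = 0.00105). Tuba1a, an alpha-tubulin abundant in developing neurons, ranged from -0.48 to 0.19 after severe injury, against -0.19 to 0.09 at the labelled mild 48 h. The groups overlapped, and the difference was -0.11 with a 95% interval from -0.40 to 0.17 (adjusted p = 0.706). Within single arrays, Tubb3 minus Tuba1a lay between -2.70 and -0.46 after severe injury, against -0.18 to 0.13 in the arrays labelled mild 48 h. This separation already follows from the ranges of Tubb3 and Tuba1a given above, so it is no further result. Tubb3 minus Tubb2b also lay below the mild 48 h arrays in 12 of 12 severe arrays (-1.91 to -0.35, against -0.08 to 0.09).

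Among the intermediate filaments, the log2 ratio of Prph was -0.42, -1.84 and -1.49 at severe 8 h, -2.04, -2.24 and -1.43 at 15 h, -1.72, -0.34 and -2.05 at 24 h, and -2.25, -2.22 and -1.77 at 48 h. In the arrays labelled mild 48 h it was -0.10, -0.02 and 0.12. Severe 8 h replicate 1 and severe 24 h replicate 2 stood closest to the mild arrays, and all 12 severe arrays lay below them. The average difference was -1.65 ± 0.34 (SE, limma, adjusted p = 0.00468).

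Nefl, the light neurofilament subunit on which the polymer is built, had the widest spread of the 9 members. Its log2 ratio was 1.27, -1.16 and 0.29 at severe 8 h, -2.64, -2.52 and 0.07 at 15 h, -0.16, 1.20 and -2.31 at 24 h, and -2.10, -2.78 and 0.13 at 48 h, against 0.05, -0.04 and -0.01 in the arrays labelled mild 48 h. At every time from 8 h on, at least 1 severe array was below -1 and at least 1 was above or near 0: 7 of 12 severe arrays lay below and 5 above all arrays labelled mild 48 h. The average difference was -0.89 ± 0.80 (SE, adjusted p = 0.597). Nefm, the medium subunit, ranged from -1.73 to 0.40 over the severe arrays, against -0.07 to 0.09 in the arrays labelled mild 48 h. It lay below them in 10 of 12 severe arrays, with an average difference of -0.90 ± 0.37 (SE, adjusted p = 0.145). Ina ranged from -2.01 to 0.30 in severe arrays, against -0.14 to 0.15 in the arrays labelled mild 48 h, with an average difference of -0.64 ± 0.35 (SE, adjusted p = 0.314). The 6 severe 8 to 48 h arrays in which Nefl, Nefm and Ina were each below -1 were the same ones: 8 h replicate 2, 15 h replicates 1 and 2, 24 h replicate 3, and 48 h replicates 1 and 2. In the annotation Nefl and Nefm are neighbours with 1 gene model between them (Pearson's r = 0.921 over the 16 arrays). Tuba1a and Prph have 3 gene models between them (r = 0.185). Any part of gene position was not tested.

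Nefh and Map2 showed no such split. Nefh, the heavy subunit, was between 0.05 and 0.52 in the severe arrays and between -0.09 and 0.13 in the arrays labelled mild 48 h. It was above all of these in 9 of 12 severe arrays, and its difference of 0.22 ± 0.09 missed the threshold (SE, adjusted p = 0.133). Map2 was between -0.07 and 0.44 in severe arrays and between -0.11 and 0.17 in the arrays labelled mild 48 h, with a difference of 0.15 ± 0.07 (SE, adjusted p = 0.218). Prph minus Nefh within single arrays lay between -2.50 and -0.57 after severe injury, against -0.06 to 0.07 in the arrays labelled mild 48 h. The ranges of Prph and Nefh given above already fix this lack of overlap. Nefl minus Nefh overlapped between the groups, at -2.83 to 1.12 after severe injury, against -0.14 to 0.10 in the arrays labelled mild 48 h.

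**Figure D2:**
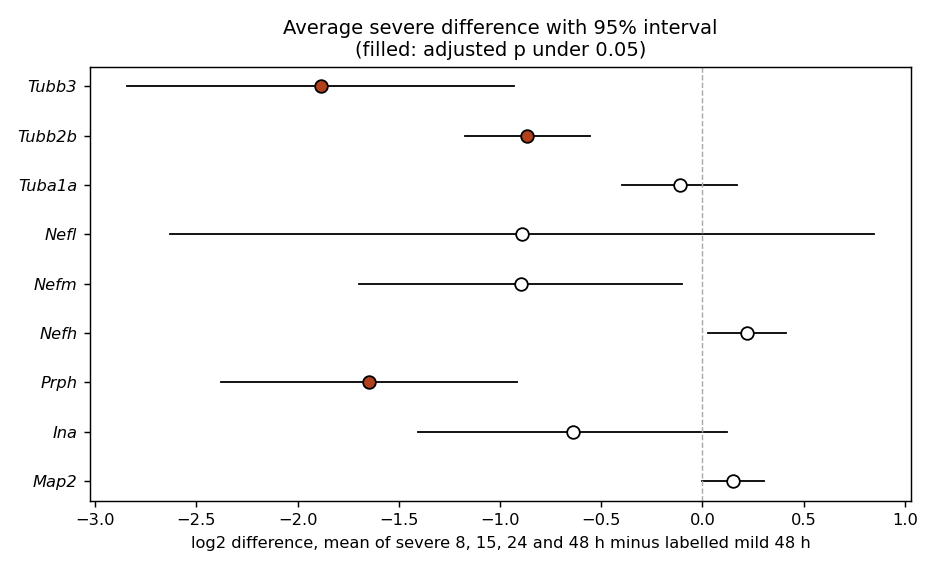
Log2 difference of each member gene (y axis) between the mean of the severe 8, 15, 24 and 48 h groups and the arrays labelled mild 48 h (x axis), with its 95% confidence interval from limma. Filled points (Tubb3, Tubb2b and Prph) have an adjusted p under 0.05, and the interval of Nefl runs from -2.63 to 0.85.

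As labelled, the chip of an array moved with these groups. In the 3 pairs of a severe and a mild 48 h array on the same chip (chips 1, 2 and 4), the log2 difference of Tubb3 was -1.21, -0.89 and -2.74, that of Tubb2b was -0.89, -0.45 and -0.94, and that of Prph was -1.70, -0.53 and -1.94. All 9 of these values were below 0. They had to be, since all severe arrays lay below all arrays labelled mild 48 h for these 3 genes, so their sign is no separate check of chip. The severe arrays of the pairs were from 24, 8 and 15 h, in that order. Nefl differed by -0.13, 1.28 and -2.69 in the same pairs. With chip as a block, the average difference was -0.87 for Tubb2b (limma, adjusted p = 0.0305), and it missed the threshold for Tubb3 (-1.73, adjusted p = 0.181) and Prph (-1.52, adjusted p = 0.0936). Without mild 48 h replicate 3, Tubb3 missed it as well (-1.81, adjusted p = 0.0634).

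The promoters of the 3 genes that passed the threshold in the severe average are shown: each is the 250 bases before the transcript start from RefSeq (assembly GRCr8, plus strand), 5′ to 3′. Capitals mark the TATA box (TATAAA), the CCAAT box (CCAAT), the GC box (GGGCGG) and the cAMP response element (TGACGTCA) on either strand, and no matches overlap. Tubb3 lies at chr19:68365437-68365686, Tubb2b at chr17:30952836-30953085 and Prph at chr7:132097039-132097288.
Tubb3: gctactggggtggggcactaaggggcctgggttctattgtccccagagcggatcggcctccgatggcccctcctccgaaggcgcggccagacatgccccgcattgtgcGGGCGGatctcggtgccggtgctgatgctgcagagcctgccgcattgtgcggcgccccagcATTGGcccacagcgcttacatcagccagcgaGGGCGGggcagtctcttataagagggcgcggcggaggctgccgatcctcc
Tubb2b: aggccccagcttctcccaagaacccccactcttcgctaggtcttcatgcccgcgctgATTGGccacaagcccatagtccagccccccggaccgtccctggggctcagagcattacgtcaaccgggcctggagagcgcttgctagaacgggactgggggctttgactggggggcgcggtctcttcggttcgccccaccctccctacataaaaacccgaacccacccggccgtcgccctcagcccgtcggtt
Prph: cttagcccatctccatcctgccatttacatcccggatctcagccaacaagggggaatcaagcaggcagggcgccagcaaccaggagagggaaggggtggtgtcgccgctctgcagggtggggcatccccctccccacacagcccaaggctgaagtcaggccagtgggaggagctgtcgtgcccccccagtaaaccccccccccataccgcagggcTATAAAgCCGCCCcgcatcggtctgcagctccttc
The Tubb3 window held 2 GC boxes and 1 CCAAT box, the Tubb2b window 1 CCAAT box, and the Prph window 1 TATA box and, after it, 1 GC box on the other strand. Of 33469 rat promoter windows of this length, 34.0% held the CCAAT box, 30.5% the GC box, 12.9% the TATA box and 1.6% the cAMP response element, which none of the 3 held. The GC content was 68.0% for Tubb3, 65.2% for Tubb2b and 64.4% for Prph, against a median of 51.2% over all windows. Members that did not pass had 70.8% with 2 GC boxes (Ina), 56.8% with 1 CCAAT and 1 GC box (Tuba1a), and 32.0% with no box (Map2). Promoters of 6 of the 9 measured members were matched.

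At single times after severe injury, 1 to 3 members passed the threshold, all lower than in the arrays labelled mild 48 h. At 8 h it was Tubb2b, at -0.65 ± 0.18 (SE, limma, adjusted p = 0.0417), where 8.6% of all features were called and 5.13% were called lower. At 15 h, where 10.8% were called and 6.39% were called lower, Tubb3 differed by -2.32 ± 0.56 (adjusted p = 0.0171), Tubb2b by -0.96 ± 0.18 (adjusted p = 0.00403) and Prph by -1.90 ± 0.43 (adjusted p = 0.0118). At 24 h only Tubb2b passed, at -0.64 ± 0.18 (adjusted p = 0.043), where 9.18% were called and 6.34% were called lower. At 48 h, where 11.2% were called and 7.76% were called lower, Tubb3 differed by -2.29 ± 0.56 (adjusted p = 0.017), Tubb2b by -1.20 ± 0.18 (adjusted p = 0.000797) and Prph by -2.08 ± 0.43 (adjusted p = 0.00627). At 48 h all 3 severe arrays also lay below all 3 arrays labelled mild 48 h for Nefm (-1.32 ± 0.46, adjusted p = 0.1) and Ina (adjusted p = 0.123), which missed the threshold. Many of these calls rested on single arrays. Tubb3 missed the threshold in 5 of 6 fits without 1 array, both at 15 h (adjusted p up to 0.0799) and at 48 h (up to 0.0644), and Tubb2b did so in 5 of 6 at 8 h and at 24 h (up to 0.182). With chip as a block, Tubb2b at 48 h was the only member called at any single time (adjusted p = 0.0326). All 3 severe 48 h arrays were on chip 3, which held no array labelled mild 48 h. That chip-adjusted value therefore rests on no pair from a shared chip and takes the chip 3 offset from the other severe times.

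The 1 severe 0 h array, which has no replicate, gave log2 ratios of -2.67 for Tubb3, -1.12 for Tubb2b, -1.68 for Nefl, -1.47 for Nefm and -1.16 for Ina. Prph differed by -2.08 from the arrays labelled mild 48 h. Nefh and Map2 were both at 0.20 and Tuba1a was at -0.11. As in the 6 later arrays just named, Nefl, Nefm and Ina were each below -1.

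The severe times did not differ from each other past the threshold. Severe 48 h minus severe 8 h was below 0 for all 9 members, with a median of -0.83, but 0 members and 0 of all 21895 features were called (limma, background 0%). At an unadjusted p under 0.05 there were 1716 features, among them Tubb2b (-0.55 ± 0.18, adjusted p = 0.585) and Map2 (-0.30 ± 0.09, adjusted p = 0.552). The F test over severe 8, 15, 24 and 48 h called 0 members as well, with an adjusted p of 0.983 for each.

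Other genes of the microtubule and filament systems were taken as lists. For these and for the cell type markers, fell and rose mean lower and higher than in the arrays labelled mild 48 h. Of 14 other tubulins and tubulin-folding genes measured, 1 fell and 1 rose in the severe average against the arrays labelled mild 48 h. Tubb5, a widely expressed beta-tubulin, differed by -1.01 ± 0.22 (SE, limma, adjusted p = 0.00774), and Tubb4b, a beta-tubulin of cilia and many other cells, by 0.86 ± 0.17 (adjusted p = 0.00337). The list's median was -0.03. Of 25 other microtubule-associated proteins, stathmins and collapsin response mediators, 4 fell, among them Crmp1, a semaphorin signalling protein (-1.59 ± 0.41, adjusted p = 0.0192), and Stmn1, which binds free tubulin dimers (-1.35 ± 0.41, adjusted p = 0.0442). Tppp3, a tubulin polymerisation-promoting protein, was the 1 that rose, by 3.23 ± 0.33 (adjusted p = 2.73e-05). The median of these 25 was -0.10. None of the 18 axonal motor genes passed the threshold (median -0.05). Of 16 kinases, severing and modifying enzymes, Svbp, the partner of the tubulin-detyrosinating vasohibins, fell (-0.87 ± 0.18, adjusted p = 0.00523). Of 10 intermediate filament genes of other cells, 4 rose and 1 fell: Nes, the filament of neural progenitors, by 2.40 ± 0.30 (adjusted p = 0.000151), Krt19 by 1.71 ± 0.40 (adjusted p = 0.0112) and Synm by 1.10 ± 0.17 (adjusted p = 0.000744). Over all features, 5.75% were called higher and 8.73% lower in this comparison.

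Markers of cell types moved with the same arrays. Of 16 neuron markers, 4 fell in the severe average and none rose. Thy1, a surface glycoprotein of mature neurons, differed by -2.34 ± 0.41 (SE, limma, adjusted p = 0.00156), Nrgn, a postsynaptic calmodulin-binding protein, by -2.12 ± 0.60 (adjusted p = 0.0313), and the vesicular glutamate transporter Slc17a6 fell too (adjusted p = 0.00169). The median of the 16 neuron markers was -1.59 and -1.63 in severe 15 h replicates 1 and 2, -1.51 in 24 h replicate 3, -1.37 and -2.18 in 48 h replicates 1 and 2, -0.50 in 8 h replicate 2 and -1.07 at 0 h. These are the arrays in which Nefl, Nefm and Ina were below -1. In the other severe arrays it was between -0.06 and 0.17, and in the arrays labelled mild 48 h between -0.04 and 0.04. Lists of other cells were shifted in all 12 severe 8 to 48 h arrays. The median of 8 astrocyte markers (6 rose) was 0.68 to 1.35 in these, against -0.01 to 0.01 in the arrays labelled mild 48 h, and that of 10 oligodendrocyte-lineage markers (6 rose) was 0.71 to 1.95, against -0.03 to 0.02. The 8 ciliated ependymal markers (all 8 rose) had medians of 1.54 to 3.39, against -0.09 to 0.07, and the 10 fibroblast and meningeal markers (9 fell) of -3.98 to -2.46, against -0.02 to 0.07. Of 7 microglia markers none passed and of 4 endothelial markers 1 fell; 2 of 7 immature neuron and progenitor markers rose. In the severe arrays whose neuron median was near 0, Tubb3 was at or below -0.75 and Prph at or below -0.34. The astrocyte, oligodendrocyte, ciliated and fibroblast lists were shifted in those arrays too, and a list median does not show single markers. The part of the cell type markers in the differences of Tubb3, Tubb2b and Prph was not tested. In bulk RNA, fewer cells of a type and less RNA per cell cannot be told apart.

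**Figure D3:**
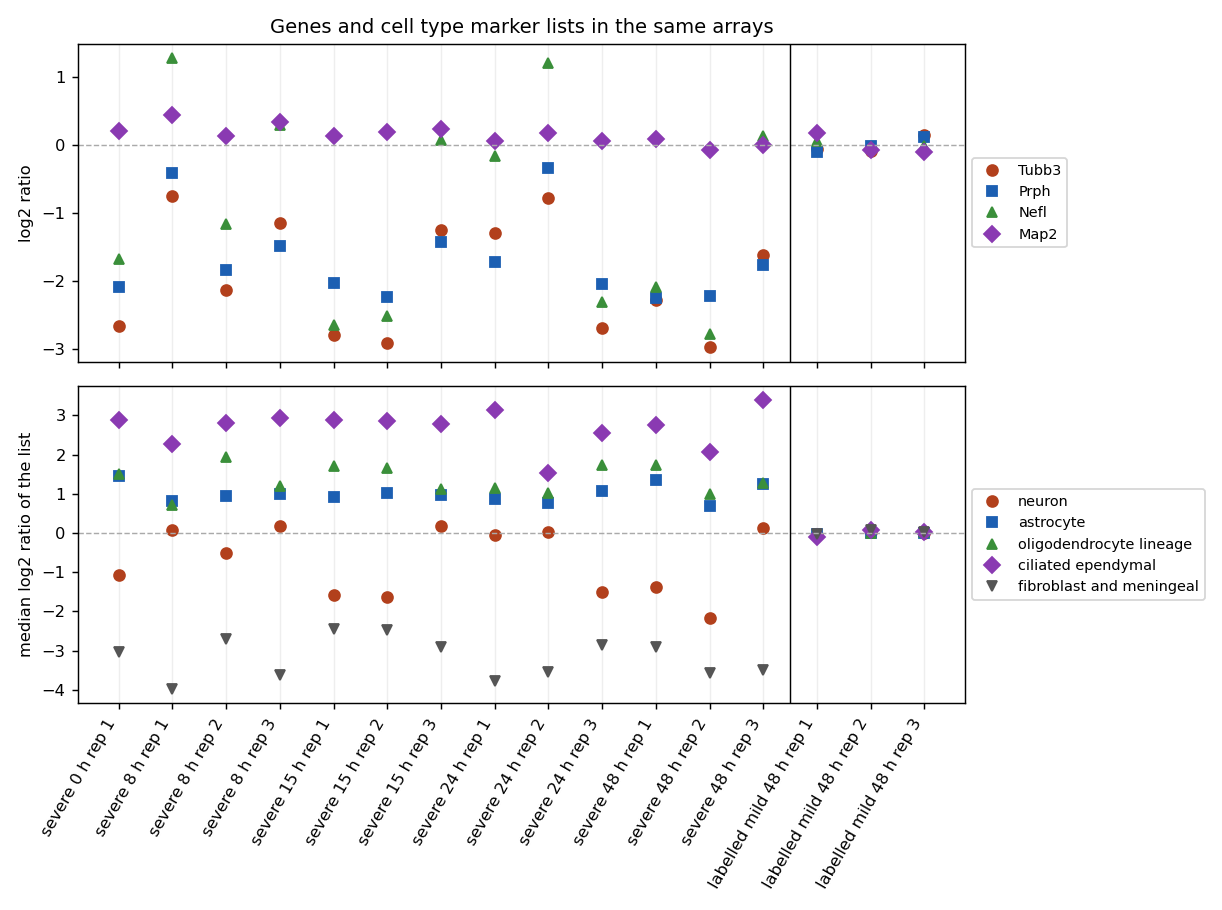
Upper panel: log2 ratio of Tubb3, Prph, Nefl and Map2 in each severe array (by time and replicate) and, right of the line, each array labelled mild 48 h. Lower panel: median log2 ratio of 5 marker lists in the same arrays. Nefl and the neuron list are low in the same arrays, whereas the astrocyte, oligodendrocyte, ciliated and fibroblast lists are shifted in every severe array.

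The genes whose log2 ratio was most like that of 1 member of each class over the 16 arrays were named by Pearson's r, as a description, since the severe and mild arrays stand apart and the severe arrays are themselves split. For Tubb3 they were LOC303471 (r = 0.981), Ydjc (0.98) and LOC302210 (0.98). For Nefl they were Chrm3, a muscarinic acetylcholine receptor (0.992), Clec2l (0.989) and Slc12a5, the neuronal potassium-chloride cotransporter (0.986). For Map2 the likeness was lower, with LOC298604 (0.87), LOC501270 (0.823) and LOC306264 (0.82).

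Members differed less among the 18 control and mild arrays of the other divisor. Control 4 to 6 were compared with control 1 to 3, since both carry the control label. Tubb3 was at 0.53, 0.54 and 0.55 in control 4 to 6 and at -0.04, -0.14 and 0.17 in control 1 to 3. Ina was at 0.53, 0.44 and 0.50 in control 4 to 6, and at -0.10, -0.05 and 0.14 in control 1 to 3. Neither gene overlapped between the groups. The difference was 0.55 ± 0.13 for Tubb3 (SE, limma, adjusted p = 0.0155), 0.49 ± 0.10 for Ina (adjusted p = 0.00876), 0.57 ± 0.17 for Map2 (adjusted p = 0.0355) and 0.35 ± 0.10 for Tubb2b (adjusted p = 0.0354). These 4 of 9 were called higher, where 11.5% of all features were called higher and 0.311% lower (11.8% in either direction), and all 9 members were above 0. A list of 56 proteasome and respiratory chain genes was higher too: its median was 0.37 to 0.39 in control 4 to 6, against -0.22 to 0.15 in control 1 to 3, and 39 of the 56 were called higher. With arrays centred on these 56 genes, 0 members were called, Tubb3 differed by 0.16 and Tubb2b turned to -0.038. That centring moved the median of all features to -0.36 and called 67 features higher of 14293 called, against 2519 higher of 2587 without it. The median of 7 microglia markers was 0.88 to 0.90 in control 4 to 6 and -0.12 to 0.25 in control 1 to 3, and that of the neuron markers 0.16 to 0.24 and -0.02 to 0.05 in the same groups. The 10 fibroblast and meningeal markers, 5 of which were called higher, had medians of 0.34 to 0.55 in control 4 to 6, against -0.34 to 0.18 in control 1 to 3. The part of these shifts in the members' differences was not tested. On chip 2, control 4 differed from the mean of control 2 and 3 by 0.52 for Tubb3, 0.36 for Tubb2b, 0.48 for Ina and 0.63 for Map2. With chip as a block 0 members were called, but so were only 6 of all features. Without control replicate 2 none was called, without replicate 5 or 6 only Ina was, and without replicate 1 or 4 Tubb3 and Ina were.

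Mild 0 h was compared with control 1 to 3. Map2 was at 0.66, 0.90 and 0.31 at mild 0 h and at -0.16, 0.01 and 0.13 in control 1 to 3. Tubb3 was at 0.35, 0.62 and 0.46 at mild 0 h, against -0.04, -0.14 and 0.17 in control 1 to 3. The groups did not overlap for either gene. The differences that passed were those of Map2 (0.63 ± 0.17, SE, limma, adjusted p = 0.0424), Tubb3 (0.49 ± 0.13, adjusted p = 0.0427) and Ina (0.41 ± 0.10, adjusted p = 0.0297), so 3 of 9 were called higher, where 4.61% of all features were (4.78% in either direction). On the chips that held both groups, mild 0 h replicates 2 and 3 differed from the controls there by 0.66 and 0.45 for Tubb3, 0.69 and 0.30 for Ina, and 1.06 and 0.24 for Map2. The 56 proteasome and respiratory chain genes had medians of 0.19 to 0.47 at mild 0 h, against -0.22 to 0.15 in control 1 to 3, and 0 members were called with arrays centred on them. Cell type markers moved at mild 0 h too. Of 16 neuron markers 3 were called higher (array medians 0.12 to 0.30 at mild 0 h, against -0.02 to 0.05 in control 1 to 3), as were 2 of 7 immature neuron and progenitor markers. Of 10 fibroblast and meningeal markers 2 were called higher (0.08 to 0.44, against -0.34 to 0.18), and none of 7 microglia markers was (0.03 to 0.68, against -0.12 to 0.25). Their part in the members' differences was not tested. No member was called with chip as a block, with all 6 controls as reference, or without control replicate 1 or 2 or mild 0 h replicate 1 or 2. Over all features, the chip block called 159 and all 6 controls as reference 0. Set against control 4 to 6, the difference of Tubb3 at mild 0 h was -0.061 and that of Ina -0.084 (adjusted p = 1 for both), so their direction depended on which control arrays were used.

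**Figure D4:**
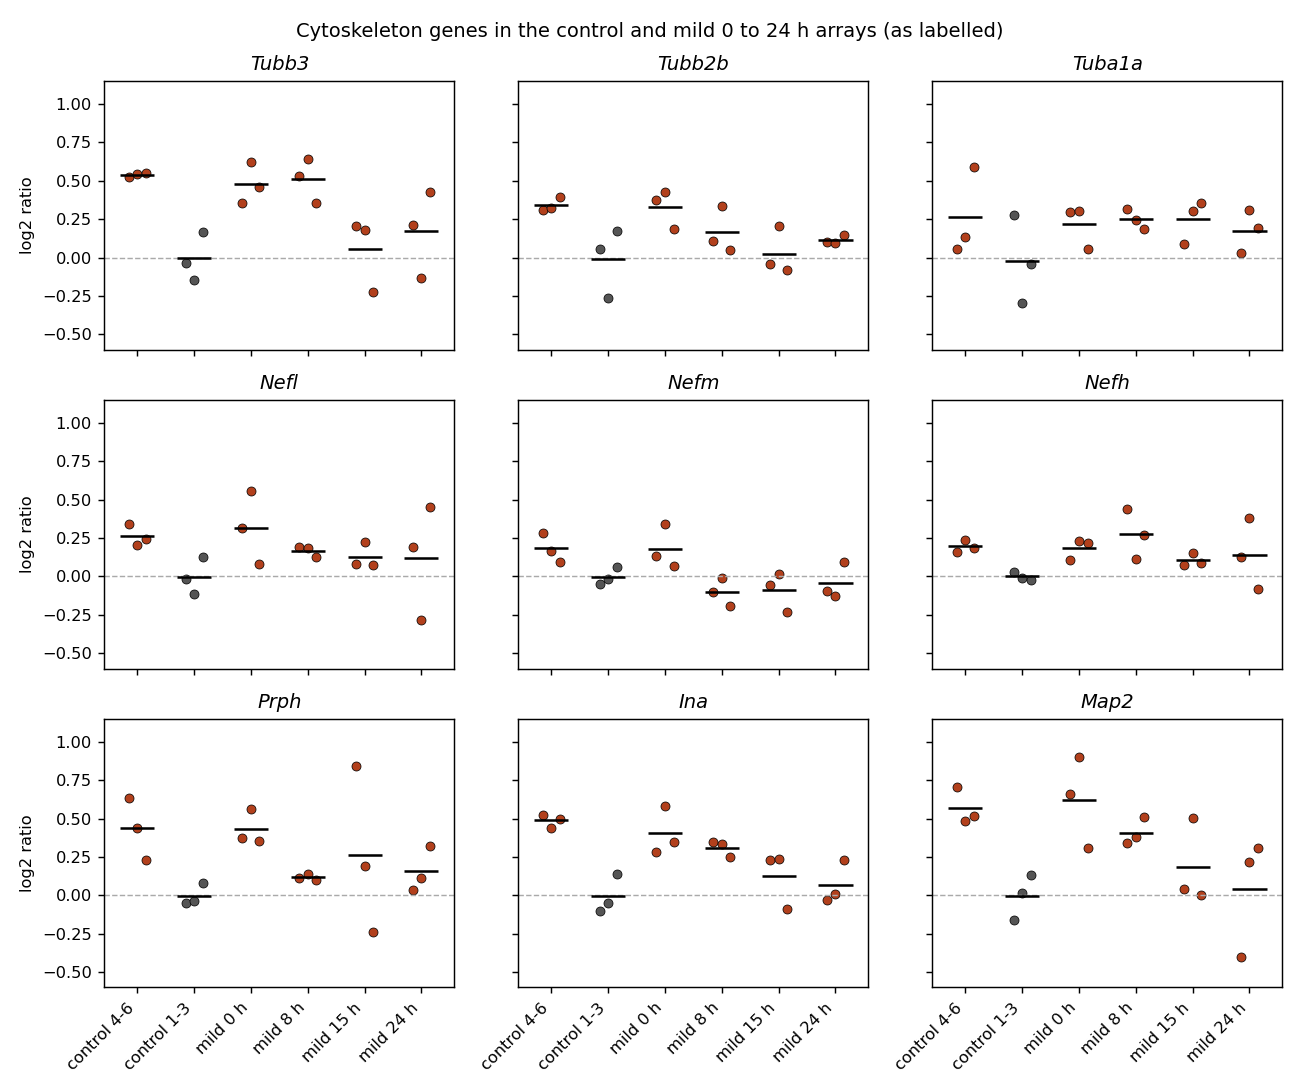
Log2 ratio of each member gene (one panel per gene, y axis) in control 4 to 6, control 1 to 3 (grey) and mild 0, 8, 15 and 24 h, as labelled. Each point is 1 array and each bar a group mean. Tubb3, Ina and Map2 lie above control 1 to 3 in control 4 to 6 and at mild 0 and 8 h, and overlap it at 24 h.

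At mild 8, 15 and 24 h, 0 of 9 members were called against control 1 to 3, where 0.119% of all features were called at 8 h and 0 at 15 and 24 h. At an unadjusted p under 0.05 there were 4 members at 8 h, where 10.9% of all features were, and 0 at 15 h (5.28% of all features) and at 24 h (8.74%). Tubb3 at 8 h was at 0.53, 0.64 and 0.35, above the -0.14 to 0.17 of control 1 to 3, and its difference of 0.52 ± 0.13 missed the threshold (adjusted p = 0.12). At 15 h its log2 ratios were 0.20, 0.18 and -0.22, and at 24 h 0.21, -0.13 and 0.43, both overlapping control 1 to 3. Against control 4 to 6, Tubb3 (-0.49, limma, adjusted p = 0.023) and Ina (-0.36, adjusted p = 0.0241) were lower at mild 15 h, where 9.87% of all features were called lower, whereas against control 1 to 3 both were above 0 there (0.06 and 0.13). Mild 24 h minus mild 0 h was below 0 for all 9 members, from -0.58 for Map2 to -0.04 for Nefh, and none passed (lowest adjusted p = 0.166; 0.311% of all features were called). The F test over mild 0, 8, 15 and 24 h called none of the 9, where 2.06% of features were called. The change between 8 and 24 h was also compared between severe and mild injury over all 34 arrays, a test chosen after the data had been seen. It called 0 members and 0 of 21895 features, with 904 at an unadjusted p under 0.05 and none of these a member.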

How the data were processed

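Linear ratios deposited by the authors, for 22226 probes on each of 34 arrays, were the values used. From the values, 2 of 5984 possible triples of arrays averaged 1 at every probe within 1e-04 and were taken as the divisors of the 2 sets. Software, background correction and filters are not given in the sources used here. The deposited signal table has 34 columns of per-sample values that match no sample label. They entered no comparison and served only to check scale and array order. Detection cannot be judged from ratios, and precision is limited by the number of arrays.

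The ratios were put on the log2 scale as deposited. Probes were named by platform annotation (13192), RefSeq accession (363) or the deposited description (8569, Tubb3 among them), and 102 had no name. Probes of 322 genes were averaged. Tests used R 4.3.3 with limma 3.58.1 (lmFit, then eBayes, 1 mean per group, two-sided, fitted within the 18 or 16 arrays of one divisor), with Benjamini-Hochberg adjustment over 21895 features and a threshold of 0.05. The code was tested on simulated data. Figures were made in Python 3.11.15 with pandas 2.3.3 and matplotlib 3.10.9. Named were all members, the 3 genes most like Tubb3, Nefl and Map2 over 16 arrays, and up to 3 called genes per list by size. Members and lists were chosen with earlier results of these data known. Alternatives changed the arrays fitted, centring, normalization, probe averaging, variance model, chip or replicate block, reference or 1 array. For same-numbered replicates, deviations from group means correlated from -0.686 to 0.749, with medians per replicate number from -0.142 to 0.037. With so few arrays a group, these values cannot tell whether the numbers pair arrays by culture. Same-numbered mild arrays did share a chip.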

Additional observations from a re-analysis of the deposited data

How the results depend on the processing

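Of 1764 tested values of single members under all alternatives, 1529 kept their direction and side of the threshold, 96 kept the direction and were no longer past it, and 33 kept it and newly passed. Another 101 changed sign and were past the threshold in neither fit, and 5 that were past it in a fit changed sign. In the severe average (3 members called), all 34 arrays in 1 fit and centring on the proteasome and respiratory chain genes gave 4 each, chip as a block left 1, and fits without 1 array gave 2 to 3. For severe 8 h (1 called), all 34 arrays, only the arrays compared, and that centring gave 3 each, and the chip block 0. Fits without 1 array gave 0 to 2, with Prph called without severe 8 h replicate 1 (-1.66, adjusted p = 0.0334). For severe 15 h (3 called) all 34 arrays, only the arrays compared and that centring gave 4 each, the chip block 0 and fits without 1 array 1 to 3, the lowest without severe 15 h replicate 2. For severe 24 h (1 called) all 34 arrays gave 4, that centring 3 and the chip block 0, and fits without 1 array 0 to 2, with Prph called without severe 24 h replicate 2 (-1.88, adjusted p = 0.00601). For severe 48 h (3 called) all 34 arrays and that centring gave 5 each, the chip block 1, and fits without 1 array 2 to 5, with Nefm (adjusted p = 0.0406) and Ina (adjusted p = 0.0268) called without severe 48 h replicate 3. For mild 0 h (3 called), all 34 arrays, only the arrays compared, that centring, quantile normalization, the chip block and all 6 controls or control 4 to 6 as reference gave 0, and fits without 1 array 0 to 4. With control 4 to 6 as reference, Tubb3 and Ina changed sign at mild 0 h (-0.061 and -0.084) and at mild 15 h (-0.49 and -0.36, 2 members called). For mild 8 h (0 called) only the arrays compared gave 1, Tubb3 (adjusted p = 0.0354). For control 4 to 6 (4 called), all 34 arrays, that centring, quantile normalization and the chip block gave 0, fits without 1 array 0 to 4, and Tubb2b changed sign under that centring (-0.038). The mild time course called 0, and 0 to 1 without 1 array, the 1 without mild 24 h replicate 3. The causes were not tested.

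With a replicate block, 0 members were called at severe 8 h and at mild 0 h, and 4 in the severe average, where Nefh was added (0.22, adjusted p = 0.0386). At severe 24 h the block exchanged Tubb2b for Nefh. No replicate block could be fitted for control 4 to 6 against 1 to 3, whose numbers are not shared.

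Over all features, the severe average called 3170 (1258 higher), against 1446 with the chip block, 4499 over all 34 arrays and 3321 (971 higher) with the proteasome and respiratory chain centring, which moved the median of all features by up to 0.29 in the severe and 0.39 in the other comparisons. Severe 8 h called 1882 features, against 3057 over all 34 arrays and 3104 with only the arrays compared. There that centring called 2189 and the chip block 812. Severe 15 h called 2368, against 3797, 3983, 2620 and 965 in the same order. Severe 24 h called 2011, against 3320 over all 34 arrays, 2289 with that centring and 907 with the chip block. Severe 48 h called 2452, against 904 with the chip block and 1227 after quantile normalization. It called 3891 over all 34 arrays and 2431 with that centring. Mild 0 h called 1046, against 12071 with that centring (46 higher), 34 after quantile normalization and 1 over all 34 arrays. With 3 arrays a group and chip 3 holding most severe arrays, chip and injury could be told apart only through the 3 pairs on shared chips. Those pairs hold only as labelled, since the labels of the mild 48 h arrays are uncertain. No severe 48 h array was in these pairs.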
